A study of Homo sapiens with 3 samples.

Results

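The glucocorticoid receptor gene NR3C1 and 9 genes that glucocorticoids are known to induce (TSC22D3, FKBP5, SGK1, SCNN1A, CRISPLD2, KLF9, ERRFI1, PDK4 and ZBTB16) were followed across 3 expression arrays of MDA-MB-231 cells. Every probe set annotated to one of these symbols and to no other was taken, which gave 27 of 54675 probe sets and 10 of 19775 named genes. MDA-MB-231 is an established human line from a breast carcinoma, basal in type and usually counted among the estrogen receptor negative lines. The cells spent 4 h in medium with 10% charcoal-stripped serum and then 3 h with estradiol at 1 µM, tamoxifen at 1 µM or the vehicle, 0.1% ethanol. Charcoal treatment of serum removes steroid hormones, and no group received a glucocorticoid according to the labels. By the labels each group was 1 array with no replicate, so no difference below has an error, an interval or a p-value, and the precision is limited by the number of arrays.

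The glucocorticoid receptor is a steroid hormone receptor that waits in the cytoplasm in a complex with the chaperone HSP90. On binding cortisol or a synthetic glucocorticoid it enters the nucleus and attaches to DNA elements made of an inverted repeat, from which it activates genes such as TSC22D3 and FKBP5. It also restrains inflammatory genes that NF-kB and AP-1 drive, and in breast epithelium it is known for effects on survival and differentiation. Estradiol is the main natural estrogen and the ligand of the estrogen receptor. Tamoxifen is an antiestrogen that competes for the same receptor.

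The promoters of the members were searched for the letters of the receptor's element. The windows were RefSeq promoter sequences of GRCh38.p14, from 250 bases before to 50 bases after each annotated start, and 8 of the 10 members had 20 windows between them. SCNN1A and ZBTB16 are named only. The inverted repeat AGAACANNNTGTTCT, which reads the same on both strands, was in none of these 20 windows and in 1 of all 35116 windows (0.00285%). Its core AGAACA, searched with its reverse complement TGTTCT and also contained in the repeat, was in 3 of the 20 member windows and in 14.8% of all windows. The matches are shown because they are the only ones among the members, each as 30 bases of the strand of the gene with the core in capitals.
FKBP5, chr6:35728566-35728595, minus strand: caccactaccccAGAACAaactcctacctc
SGK1, chr6:134177839-134177868, minus strand: ggggttcataacAGAACAgggatagccgtc
PDK4, chr7:95596737-95596766, minus strand: tcccTGTTCTtcccaccctttttccgtcac
The core began at base 1 after the annotated start in FKBP5, at base 6 after it in SGK1 and at base -246, before it, in PDK4. The core was in none of the 4 windows of TSC22D3 and not in the window of ERRFI1. A match describes letters and not a bound site, and a missing match says only that the letters are not in that window.

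The deposited log2 values of a probe set are relative to a baseline of its own, not stated, so they carry no level, and a value is read against the other columns of the same probe set only. Base 2 and the direction, higher meaning more RNA, were assumed. Brightness was read from the binary steps of the deposited numbers. A probe set was called above the floor when these placed it at a log2 level of 4 or more, and 12064 named genes had at least 1 such probe set. The SD across these genes was 0.49 with estradiol, 0.49 with tamoxifen and 0.20 for vehicle. Because the vehicle column is so narrow, each comparison with it was repeated after its values were doubled. Which version is closer to the true difference was not tested. Of the basal breast markers VIM, CD44, AXL, CAV1, MSN, ANXA1 and SPARC, 6 of 7 lay above the floor, against 2 of 7 luminal, 1 of 5 leukocyte and 2 of 4 endothelial markers.

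Some measures that do not depend on the treatments' target genes also differed between the columns. Bacterial poly-A RNAs that are spiked into each sample had median differences over 24 probe sets of 1.04 for estradiol minus vehicle and 0.87 for tamoxifen minus vehicle (0.47 and 0.39 with the vehicle doubled). The 5′ control probe set of ACTB minus its 3′ control stood at 0.28 with estradiol, -0.67 with tamoxifen and 0.23 with vehicle, and for GAPDH at 0.04, -0.07 and 0.09. The part of these differences in the results below was not tested. As a measure of scatter, 3196 genes had exactly 2 probe sets above the floor. The gap between the 2 differences of such a gene was 0.25 in the median and 0.68 at the 90th percentile for estradiol minus vehicle. It was 0.25 and 0.67 for tamoxifen minus vehicle and 0.21 and 0.57 for tamoxifen minus estradiol.

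NR3C1 itself was close to vehicle with both ligands. Of its 5 probe sets, 4 lay in the brightest band (log2 level of 8 to 16). Probe set 201866_s_at stood at 0.40 with estradiol, 0.33 with tamoxifen and 0.04 with vehicle. Probe set 211671_s_at stood at 0.24, 0.32 and -0.06 and 201865_x_at at 0.11, 0.27 and -0.08 in the same order. In these 3 probe sets both ligand columns were above vehicle, by 0.18 to 0.38. The fourth, 216321_s_at, ran the other way, with -0.26 with estradiol, -0.09 with tamoxifen and 0.05 with vehicle.

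The mean over the 4 bright probe sets of NR3C1 was 0.12 with estradiol, 0.21 with tamoxifen and -0.01 with vehicle. The differences were 0.13 for estradiol minus vehicle, 0.22 for tamoxifen minus vehicle and 0.09 for tamoxifen minus estradiol, or 1.10-fold, 1.16-fold and 1.06-fold. Each is smaller than the spread of the 4 probe sets in the same comparison. Doubling the vehicle gave 0.14 and 0.23. The fifth probe set, 232431_at, lay below the floor and stood at -1.65 with estradiol, -1.06 with tamoxifen and -0.55 with vehicle. It was thus lowest with estradiol, by 1.10 against vehicle and by 0.56 with the vehicle doubled. Its tamoxifen minus vehicle difference was -0.51 as deposited and 0.03 with the vehicle doubled. The genes above the floor whose 3 values lay closest to those of NR3C1 were POLR3F, RAB11FIP2 and COX11, at Euclidean distances of 0.02, 0.02 and 0.03 over the 3 columns.

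**Figure D1:**
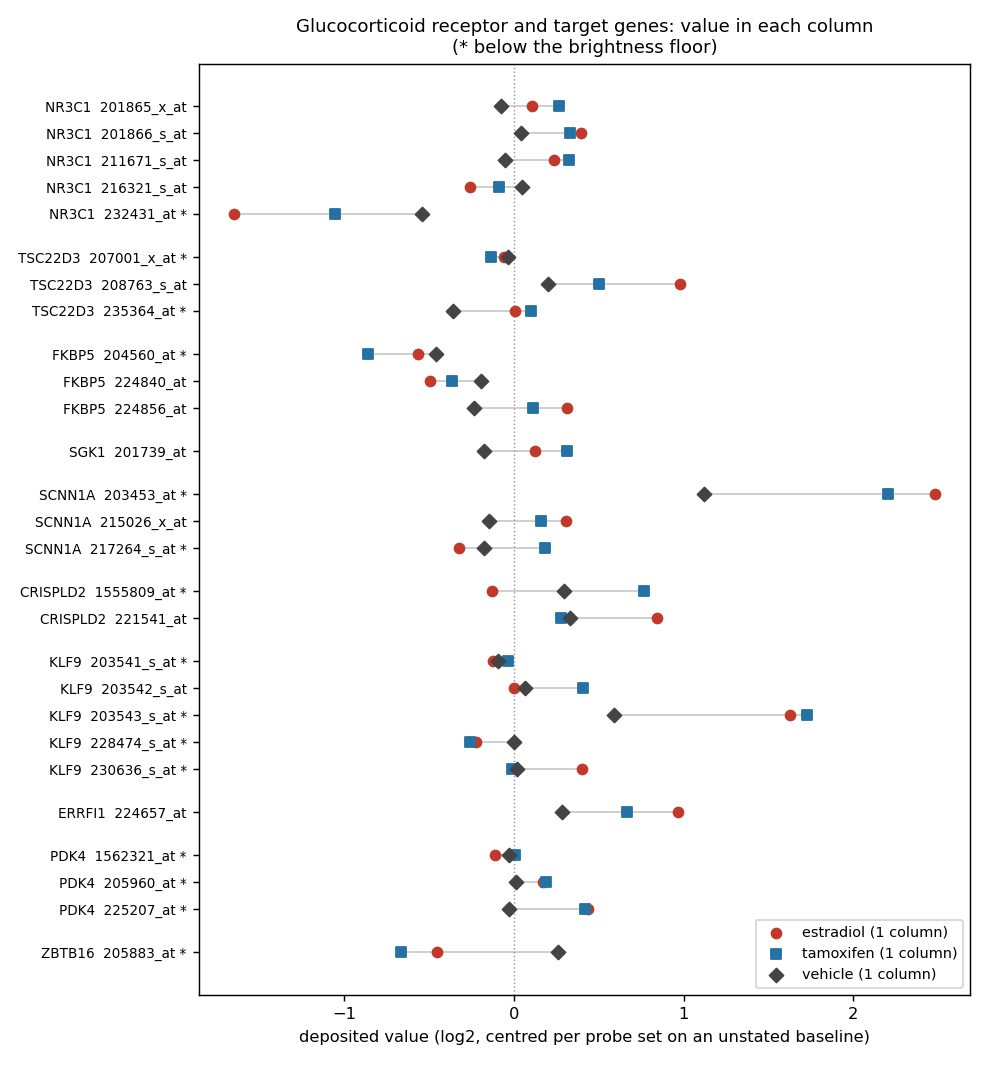
Deposited value (x axis, log2, centred per probe set) of each of the 27 probe sets (y axis, grouped by gene) with estradiol (circles), tamoxifen (squares) and vehicle (diamonds), 1 column each. The bright NR3C1 probe sets stay between -0.26 and 0.40, while SCNN1A 203453_at reaches 2.48 with estradiol and 2.20 with tamoxifen, against 1.12 with vehicle.

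TSC22D3 and FKBP5 are among the fastest targets of the receptor in many cell types. TSC22D3 encodes the leucine zipper protein GILZ, which carries part of the anti-inflammatory action of glucocorticoids. Its only probe set above the floor, 208763_s_at, stood at 0.98 with estradiol, 0.50 with tamoxifen and 0.20 with vehicle. Estradiol was highest and vehicle lowest. The difference was 0.78 for estradiol minus vehicle (1.71-fold), which 2.53% of the genes above the floor exceeded, and 0.30 for tamoxifen minus vehicle. With the vehicle doubled these were 0.58 and 0.11, and the mean over all 3 of its probe sets gave 0.37 for estradiol minus vehicle. The other probe sets of TSC22D3, both below the floor, gave estradiol minus vehicle differences of -0.03 (207001_x_at) and 0.36 (235364_at). With tamoxifen minus vehicle they gave -0.10 and 0.46. Doubling the vehicle took 235364_at past 1.5-fold with both ligands, at 0.72 and 0.81.

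FKBP5 encodes a co-chaperone that holds the receptor in a form with low affinity for hormone, and its induction is a feedback brake. Its brightest probe set, 224840_at, stood at -0.50 with estradiol, -0.37 with tamoxifen and -0.20 with vehicle. Probe set 224856_at, in the band of 4 to 8, stood at 0.31 with estradiol, 0.11 with tamoxifen and -0.24 with vehicle. The probe sets of 1 gene thus disagreed in direction, at -0.30 and 0.55 for estradiol minus vehicle and at -0.17 and 0.35 for tamoxifen minus vehicle. With the vehicle doubled the estradiol differences were -0.10 and 0.79. Probe set 204560_at, below the floor, was at -0.57 with estradiol, -0.86 with tamoxifen and -0.46 with vehicle. No direction can be given for FKBP5 from these values.

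SGK1 and SCNN1A belong to the sodium transport arm of corticosteroid action. SGK1 encodes a kinase that raises the activity of the epithelial sodium channel. Its 1 probe set, 201739_at in the brightest band, stood at 0.12 with estradiol, 0.31 with tamoxifen and -0.18 with vehicle. Both ligand columns were above vehicle, by 0.30 with estradiol (1.23-fold) and by 0.49 with tamoxifen (1.40-fold). With the vehicle doubled the differences were 0.48 and 0.67, and the tamoxifen difference was then above 1.5-fold.

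SCNN1A encodes the alpha subunit of the epithelial sodium channel. Probe set 203453_at stood at 2.48 with estradiol, 2.20 with tamoxifen and 1.12 with vehicle. It differed from vehicle by 1.36 with estradiol (2.57-fold) and by 1.08 with tamoxifen (2.12-fold). With the vehicle doubled nothing of that size was left, at 0.24 and -0.04. The steps of its vehicle value alone placed this probe set below the floor, in the band of 2 to 4. The probe set above the floor, 215026_x_at, stood at 0.31 with estradiol, 0.16 with tamoxifen and -0.14 with vehicle, so that its differences from vehicle were 0.45 and 0.30. Doubling the vehicle raised them to 0.60 and 0.45, the opposite of its effect on 203453_at. The third, 217264_s_at, stood at -0.32, 0.18 and -0.18 in the same order and lay below the floor.

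KLF9 and ZBTB16 encode zinc finger transcription factors that glucocorticoids induce. KLF9 had 5 probe sets, of which 1 lay above the floor. That probe set, 203542_s_at, stood at 0.00 with estradiol, 0.40 with tamoxifen and 0.06 with vehicle, so tamoxifen alone stood apart, by 0.34 from vehicle and by 0.40 from estradiol. Probe set 203543_s_at, in the dimmest band, showed another pattern, with 1.63 with estradiol, 1.73 with tamoxifen and 0.59 with vehicle. Its differences from vehicle were 1.04 and 1.14 as deposited and 0.45 and 0.56 with the vehicle doubled. The other 3 lay below the floor and had differences of -0.22 to 0.39 for estradiol minus vehicle and of -0.26 to 0.06 for tamoxifen minus vehicle. Over all 5 probe sets tamoxifen minus estradiol ran from -0.41 to 0.40. The probe set that covers ZBTB16, 205883_at, was also in the dimmest band. It stood at -0.45 with estradiol, -0.67 with tamoxifen and 0.26 with vehicle, so both ligand columns were below vehicle, with differences of -0.71 and -0.92.

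CRISPLD2, ERRFI1 and PDK4 encode effectors outside these groups. CRISPLD2 encodes a secreted protein that glucocorticoids induce in airway smooth muscle. Its probe set above the floor, 221541_at, stood at 0.84 with estradiol, 0.28 with tamoxifen and 0.33 with vehicle. As deposited, estradiol stood above both other columns, by 0.51 from vehicle, while tamoxifen differed from estradiol by -0.57 (0.675-fold). Probe set 1555809_at, below the floor, gave the reverse order, with -0.13 with estradiol, 0.76 with tamoxifen and 0.29 with vehicle. Its tamoxifen minus estradiol difference was 0.90. For 221541_at the vehicle doubled gave 0.19 for estradiol and -0.38 for tamoxifen, so that tamoxifen was then further from vehicle. The mean over both probe sets gave 0.0441 for estradiol minus vehicle and 0.16 for tamoxifen minus estradiol.

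ERRFI1, also known as MIG6, encodes an inhibitor of the EGF receptor. Its 1 probe set, 224657_at in the brightest band, stood at 0.97 with estradiol, 0.67 with tamoxifen and 0.28 with vehicle. The order was that of TSC22D3, with differences from vehicle of 0.69 with estradiol (1.61-fold) and 0.38 with tamoxifen (1.31-fold). The estradiol difference was exceeded by 3.78% of the genes above the floor. Doubling the vehicle left 0.40 and 0.10. PDK4 encodes a kinase that shuts off pyruvate dehydrogenase and so spares glucose, and none of its 3 probe sets lay above the floor. The brightest, 225207_at, stood at 0.44 with estradiol, 0.42 with tamoxifen and -0.03 with vehicle. Its differences from vehicle, 0.47 and 0.45, changed little with the vehicle doubled (0.50 and 0.48). The other 2 lay in the dimmest band and gave -0.08 and 0.16 for estradiol minus vehicle and 0.03 and 0.18 for tamoxifen minus vehicle.

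**Figure D2:**
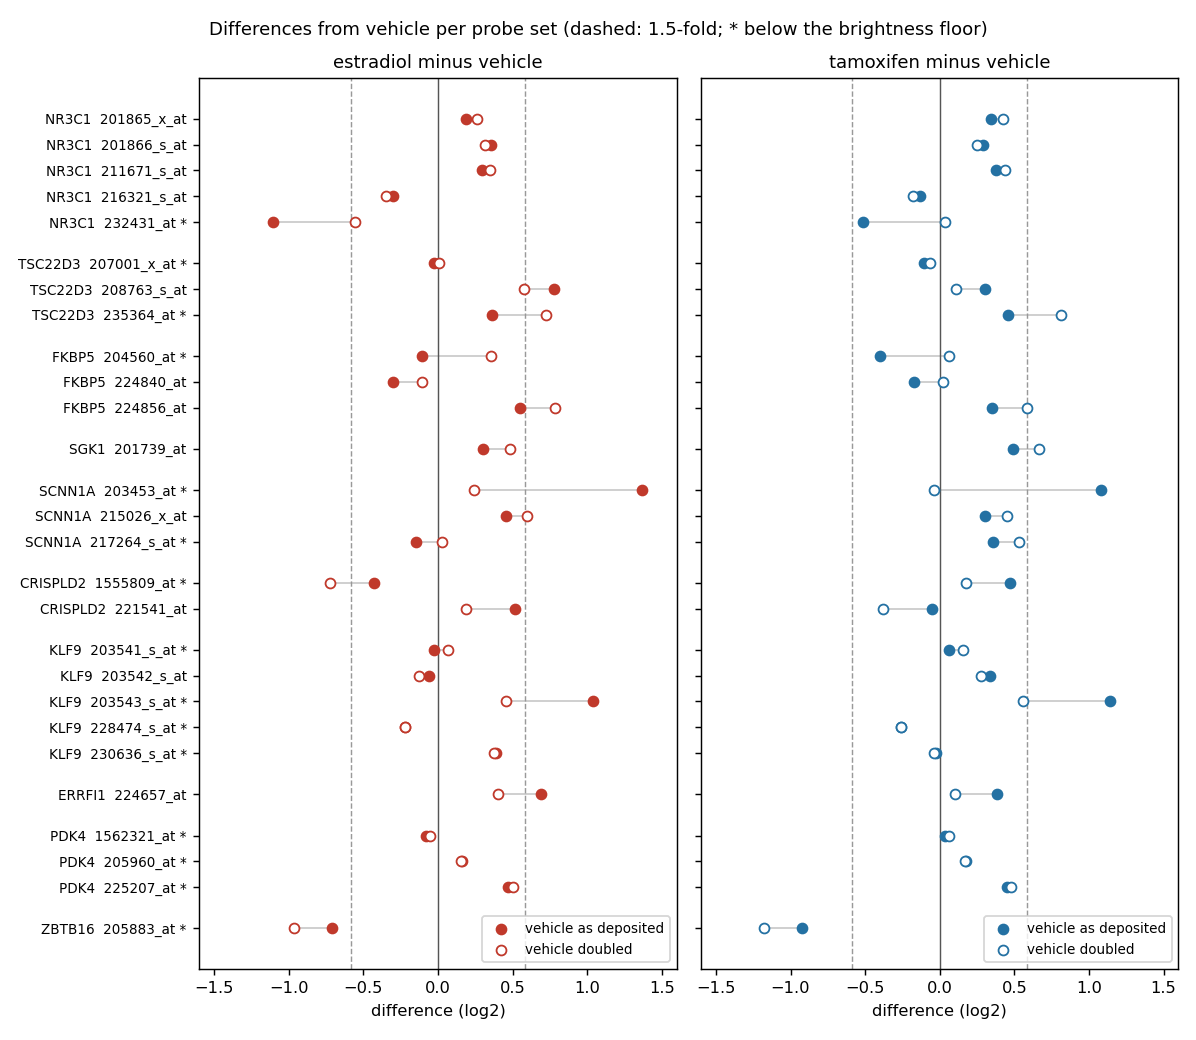
Difference from vehicle (x axis, log2) of each probe set (y axis, grouped by gene) for estradiol (left panel) and tamoxifen (right panel), with the vehicle value as deposited (filled) and doubled (open), dashed lines at 1.5-fold. The longest shifts between the settings are those of SCNN1A 203453_at, 1.36 as deposited and 0.24 doubled with estradiol, and the bright NR3C1 probe sets hardly shift.

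The members were then counted by the 1.5-fold rule beside all genes. Each gene was given the mean of those of its probe sets that lay in its brightest band, and 8 of the 10 members had one above the floor. With estradiol minus vehicle, TSC22D3 and ERRFI1 were higher past the rule, 2 of 8 members, against 5.84% of all 12064 genes. No member was lower past the rule, against 2.64% of all genes. With tamoxifen minus vehicle 0 of the 8 passed in either direction, against 6.96% of all genes higher and 4.33% lower. The members' median was 0.38 with estradiol and 0.30 with tamoxifen, against 0.02 and 0.02 over all genes. In each comparison 6 of 8 members lay above 0, against 6429 of all 12064 genes with estradiol and 6290 with tamoxifen. Those below 0 were FKBP5 and KLF9 with estradiol and FKBP5 and CRISPLD2 with tamoxifen. The comparisons share the vehicle column, so they are not separate evidence. These counts also depend on SCNN1A 203453_at being below the floor. When the floor was read without the steps of the vehicle column, a setting chosen after seeing the data, SCNN1A stood at 0.91 with estradiol and 0.69 with tamoxifen. The counts were then 3 of 8 members with estradiol minus vehicle, against 6.03% of all genes, and 1 of 8 with tamoxifen minus vehicle, against 6.92%, all of them higher. None was lower, against 2.69% and 4.38% of all genes.

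With the vehicle doubled other members passed. SCNN1A was then higher past the rule with estradiol (0.60), 1 of 8 members against 4.39% of all genes, and none was lower, against 1.91%. SGK1 was higher past the rule with tamoxifen (0.67), 1 of 8 against 7.13%, and none was lower, against 3.65%. TSC22D3, at 0.58 with estradiol, then lay just inside the rule. The members' medians were 0.30 with estradiol and 0.17 with tamoxifen, against 0.07 and 0.06 over all genes. None of the 8 passed in both settings. ZBTB16, below the floor, was lower past 1.5-fold in both, at -0.97 with estradiol and -1.18 with tamoxifen once the vehicle was doubled.

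Counted by probe set and with no floor, 4 of the 27 were higher and 2 lower past the rule with estradiol minus vehicle, against 10.2% of 41091 named probe sets in either direction. The higher ones were those of TSC22D3 (208763_s_at), SCNN1A (203453_at), KLF9 (203543_s_at) and ERRFI1 (224657_at), and the lower ones those of NR3C1 (232431_at) and ZBTB16. With tamoxifen minus vehicle 2 were higher, SCNN1A 203453_at and KLF9 203543_s_at, and 1 was lower, ZBTB16, against 11.0% in either direction.

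Compared directly with estradiol, tamoxifen gave no common direction among the members. The differences here do not use the vehicle column, but its steps enter the floor and the choice of probe sets. With the floor read without those steps the members' median was -0.06 and SCNN1A was at -0.22. The tamoxifen minus estradiol differences of the 8 members above the floor ran between -0.57 for CRISPLD2 and 0.40 for KLF9, with a median of -0.03 against -0.02 over all genes. TSC22D3 was at -0.47 (0.721-fold), ERRFI1 at -0.30 and SCNN1A at -0.15, while SGK1 was at 0.19 and FKBP5 at 0.13. Above 0 lay 4 members and below it the other 4, against 5639 above and 6413 below of all 12064 genes. None passed 1.5-fold, against 1.57% of all genes higher and 2.21% lower. Of all genes above the floor, 97.6% lay above CRISPLD2 and 95.6% above TSC22D3, and 5.69% lay above KLF9. Averaged over all their probe sets, these 3 genes were at 0.16, -0.15 and 0.03. Among the 27 probe sets with no floor, 2 were higher past the rule, 1555809_at of CRISPLD2 (0.90) and 232431_at of NR3C1 (0.59), against 7.44% in either direction. Both lay below the floor.

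**Figure D3:**
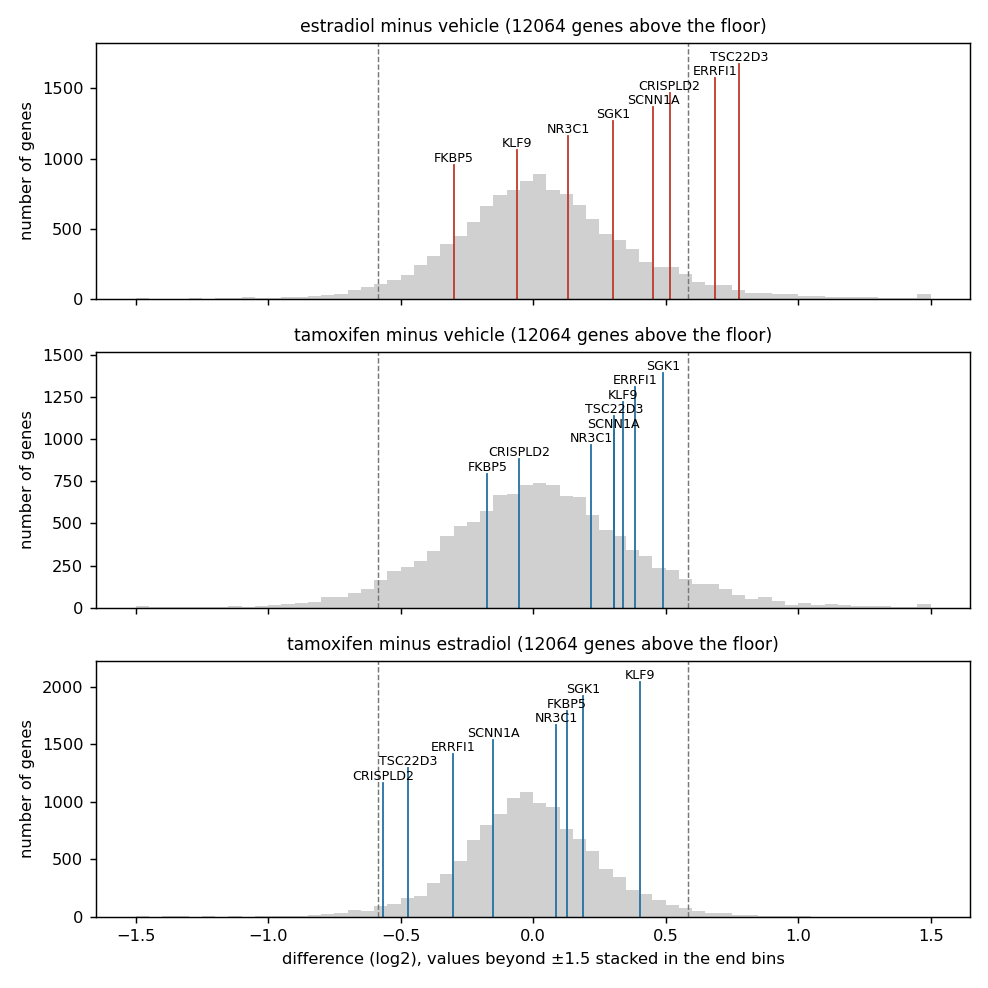
Number of genes (y axis) by difference (x axis, log2) for the 12064 genes above the floor in each comparison, with the 8 members above the floor marked and dashed lines at 1.5-fold. TSC22D3 (0.78) and ERRFI1 (0.69) lie past the line with estradiol minus vehicle, and no member does in the other panels.

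The receptor's own machinery was described from a list of 19 genes that includes NR3C1 and FKBP5, of which 14 had a probe set of their own name and 11 lay above the floor. With estradiol minus vehicle 2 of the 11 were higher and 0 lower past the rule (median 0.13), and with tamoxifen minus vehicle likewise 2 and 0 (median 0.22). The shares of all genes were 5.84% higher and 2.64% lower with estradiol and 6.96% and 4.33% with tamoxifen. The median of all genes was 0.02 in both. NR3C2 and NCOA1 passed in both. NR3C2 encodes the mineralocorticoid receptor, the closest relative of the glucocorticoid receptor, which binds the same DNA element. Its probe set stood at 1.52 with estradiol, 1.24 with tamoxifen and 0.56 with vehicle, with differences from vehicle of 0.97 and 0.69 that dropped to 0.41 and 0.13 with the vehicle doubled. The progesterone receptor gene PGR, another relative, had 2 probe sets, both in the dimmest band.

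NCOA1 and NCOA2 encode coactivators of steroid receptors. In its brightest probe set NCOA1 differed from vehicle by 0.59 with estradiol and 0.65 with tamoxifen. NCOA2 differed by 0.39 and 0.58, inside the rule with both. Doubling the vehicle left NCOA1 at 0.59 and 0.65 and gave 0.50 and 0.68 for NCOA2. Means over all 4 probe sets of each gene were smaller, at 0.34 and 0.26 for NCOA1 and 0.13 and 0.23 for NCOA2. None of the chaperone genes passed the rule as counted, and their directions differed. HSP90AA1 and HSP90AB1, which encode the cytosolic forms of HSP90, were at -0.25 and -0.29 with estradiol and at -0.07 and -0.50 with tamoxifen. The co-chaperone genes STIP1 and FKBP4 were at -0.40 and -0.17 with estradiol and at -0.45 and -0.10 with tamoxifen. With the vehicle doubled FKBP4 lay above vehicle, at 0.11 with estradiol and 0.19 with tamoxifen, and STIP1 was at -0.12 and -0.16. HSP90AA1 was then at -0.14 and 0.04 and HSP90AB1 at -0.24 and -0.45. Without cross-reacting probe set types HSP90AB1 was at -0.68 for tamoxifen minus vehicle, past the rule. PTGES3, which encodes the HSP90 partner p23, lay above vehicle, at 0.23 with estradiol and 0.45 with tamoxifen. In that direct comparison none of the 11 passed the rule (median 0.08), with NR3C2 at -0.28, PTGES3 at 0.22, HSP90AB1 at -0.21 and NCOA2 at 0.19.

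Most of the further genes that glucocorticoids induce differed from vehicle by less than the rule. Of 38 genes on this list, 35 were named on the array and 31 lay above the floor. With estradiol minus vehicle 4 were higher and 0 lower past the rule, with a median of 0.30, against 5.84%, 2.64% and 0.02 over all genes. Of the 31 genes 22 lay above 0, against 6429 of all 12064. The 4 were DDIT4, an inhibitor of mTORC1 signalling (1.11), the fatty acid activating enzyme ACSL1 (0.63), the transcription coregulator CITED2 (0.62) and the transcription factor CEBPD (0.61). With the vehicle doubled the count was again 4 higher and 0 lower, against 4.39% and 1.91% of all genes, and the median was 0.33. NFKBIA (0.78) and TNFAIP3 (0.66) then passed the rule. DDIT4 (1.18) and CEBPD (0.76) were still past it, and ACSL1 (0.51) and CITED2 (0.19) were not. Without cross-reacting probe set types ACSL1 (0.28) and CITED2 (0.42) also lay inside it.

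With tamoxifen minus vehicle 4 of these 31 genes were higher and 1 lower past the rule, with a median of 0.26, against 6.96%, 4.33% and 0.02 over all genes. Doubling the vehicle gave 6 higher and 2 lower, against 7.13% and 3.65% of all genes. DDIT4 (0.84), the corepressor subunit SAP30 (0.70), the growth factor binding protein IGFBP1 (0.67) and NFIL3 (0.59) were higher past it, and of these NFIL3 fell inside the rule with the vehicle doubled (0.54). The mean over all probe sets left SAP30 (0.41) and IGFBP1 (0.53) inside it. DUSP1, a phosphatase of MAP kinases and a classical target, was the gene that was lower, at -0.59 in its brightest probe set and at -0.10 in the mean over its 3 probe sets. With estradiol it was at -0.21. NFKBIA, which encodes the inhibitor of NF-kB, was at 0.46 with estradiol and 0.12 with tamoxifen, and at 0.78 and 0.44 with the vehicle doubled. The clock gene PER1 was not analysed here. For tamoxifen minus estradiol none of the 31 passed (median -0.07), and the largest differences were those of CITED2 (-0.40), the elongation factor ELL2 (0.40), SAP30 (0.39) and DUSP1 (-0.38).

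Among the wider lists, the genes that glucocorticoids repress had the highest medians against vehicle. The lists were chosen with earlier results of these data known, so these counts describe the list and test nothing. Of 19 genes, 18 were named on the array and 10 lay above the floor. With estradiol minus vehicle 6 of the 10 were higher and 1 lower past the rule, with a median of 1.53, against 5.84% and 2.64% of all genes. The neutrophil chemokine CXCL8 (2.23), the cytokine IL6 (2.12), the inducible cyclooxygenase PTGS2 (1.99) and the chemokine CXCL2 (1.87) had the largest differences, and the collagenase MMP1 was the gene that was lower (-0.68). With tamoxifen minus vehicle 5 were higher and 0 lower, with a median of 0.67, led by PTGS2 (1.62), CXCL8 (1.53), CXCL1 (1.37) and IL6 (1.31). These compare with 6.96% of all genes higher and 4.33% lower. Once the vehicle was doubled, the counts were 6 higher and 0 lower with each ligand, with medians of 0.97 for estradiol and 0.84 for tamoxifen. The shares of all genes were then 4.39% higher and 1.91% lower with estradiol and 7.13% and 3.65% with tamoxifen. The mean over all probe sets of CXCL2 was 0.64 for estradiol minus vehicle. For tamoxifen minus vehicle it was 0.29, inside the rule, against 1.21 in its brightest probe set. That mean for PTGS2 was 1.67 with estradiol and 0.82 with tamoxifen.

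Compared directly with estradiol, part of this list was lower with tamoxifen. For tamoxifen minus estradiol 4 of the 10 were lower past the rule and 0 higher, against 2.21% and 1.57% of all genes. The median was -0.37, and 2 of the 10 lay above 0, against 5639 of all 12064 genes. The 4 lower ones were the adhesion molecule ICAM1 (-1.21), IL6 (-0.81), CXCL8 (-0.70) and CXCL2 (-0.66). Averaging all probe sets moved CXCL2 inside the rule (-0.35) and PTGS2, at -0.37 as counted, past it (-0.85). PTGS2 was also at -0.85 with the floor read without the vehicle's steps. In the same comparison TSC22D3 was at -0.47 and NFKBIA at -0.34, neither past the rule. Averaged over all their probe sets they were at -0.15 and -0.03. The median was -0.03 over the members above the floor and -0.07 over the further induced genes. A link between any of these genes and the list was not tested.

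**Figure D4:**
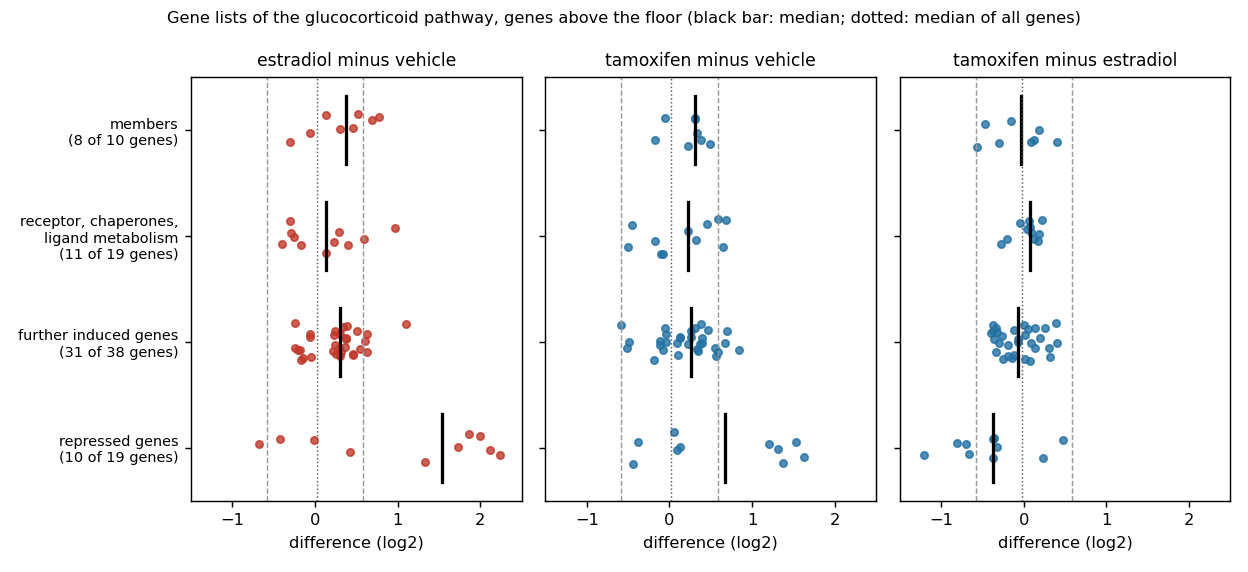
Differences (x axis, log2) of the genes above the floor in the member list and the 3 wider lists (y axis), 1 panel per comparison, each point a gene, with black bars at the list medians, the dotted line at the median of all genes and dashed lines at 1.5-fold. The repressed genes have medians of 1.53 and 0.67 against vehicle and -0.37 for tamoxifen minus estradiol, while the members have 0.38, 0.30 and -0.03. Members and lists were chosen with earlier results of these data known.

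The receptor of the ligands and reference genes were also read. For ESR1, the estrogen receptor gene, 1 of 9 probe sets passed the floor, at 0.04 for estradiol minus vehicle and -0.70 for tamoxifen minus vehicle. Averaging all 9 gave 0.0334 for tamoxifen minus vehicle. GAPDH was at -0.07 for estradiol minus vehicle and -0.15 for tamoxifen minus vehicle, and ACTB at -0.05 and -0.14.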

How the data were processed

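Total RNA of MDA-MB-231 cells was hybridised to Affymetrix HG-U133 Plus 2.0 arrays per the labels' protocols. The authors' deposited log2 values cover 54675 probe sets in 3 columns, made with RMA per the submitters' processing notes. Its version, the baseline on which the values are centred and any pooling of arrays are not given in the sources used here. Probe sets were named through the platform annotation: 41097 had 1 symbol, 1801 several and 11777 were not in the table. Of those with 1 symbol, 6 control probe sets were left out of gene values.

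Differences between columns were computed with Python 3.11.15, numpy 2.4.6 and pandas 2.3.3. With 1 array per group no test was run, and genes are counted by a rule of 1.5-fold. Brightness was taken from the finest binary step of a probe set's 3 values, after the vehicle's finer steps were shifted by 1. It was checked on 108 of 123 ribosomal protein probe sets (87.8%) and 14 of 107 olfactory receptor probe sets (13.1%) above the floor. Tested on simulated data, it placed 90.8% of 4000 probe sets in their true band and the other 367 in a brighter one. The simulation took the vehicle as a mean of more than 1 array and a stored level as the baseline. The labels give neither, so the share on the real values is not known. Simulated levels also lay inside each band with small differences between columns. Probe sets whose columns fall on both sides of a band edge were therefore not simulated. The floor replaced a planned one on levels.

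Genes named are every member, up to 4 genes with the largest differences per list and comparison, genes whose role the text needs, and the 3 nearest to NR3C1. Members and lists were chosen with earlier results of these data known. Genes past the rule named beyond these were chosen after their values were seen. Alternatives were the doubled vehicle, other floors, all probe sets averaged, cross-reacting probe set types left out and centred columns. A floor read without the vehicle's steps was added after seeing the data.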

Additional observations from a re-analysis of the deposited data

How the results depend on the processing

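The number of members past 1.5-fold in either direction was 2 of 8 with estradiol minus vehicle. It was 1 with the vehicle doubled, 1 in the brightest band (4 members), 1 with all probe sets averaged and 1 without cross-reacting probe set types (4 members), and 3 with no floor (10 members) or with the floor read without the vehicle's steps. With tamoxifen minus vehicle it was 0, and 1 with the vehicle doubled, with no floor or with the floor read without the vehicle's steps. It was 0 for tamoxifen minus estradiol under each setting run. Over the 52 distinct genes of the 3 wider lists the counts were 13, 12 and 4 for the 3 comparisons. Of all genes 5.84% were higher and 2.64% lower with estradiol minus vehicle, and 6.96% and 4.33% with tamoxifen minus vehicle. The shares were 1.57% and 2.21% with tamoxifen minus estradiol. These shares belong to the main setting. Shares of genes were not computed with no floor, in the brightest band, with all probe sets averaged or without cross-reacting types. Counts in those settings thus have no share to be set against. In the brightest band the counts over the wider lists were 4, 5 and 1 of 30 genes. Averaging all probe sets gave 7 for tamoxifen minus vehicle, and leaving out cross-reacting types gave 7 for estradiol minus vehicle and 2 for tamoxifen minus estradiol. Doubling the vehicle gave 11 with estradiol and 16 with tamoxifen. Of all genes 4.39% were then higher and 1.91% lower with estradiol, and 7.13% and 3.65% with tamoxifen. The counts were 15, 12 and 6 of 56 genes with the floor read without the vehicle's steps. With no floor they were 16, 13 and 5 of 67. Fewer genes remain in the settings with 4, 30 or 31 genes, and the cause of the other shifts was not tested. Averaged over all probe sets, ESR1 stood at 0.0334 for tamoxifen minus vehicle and 0.0576 for tamoxifen minus estradiol, against -0.70 and -0.75. No paired analysis was possible because each group has 1 array.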
